A study of Mus musculus with 12 samples.

Results

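CC chemokines of macrophages were examined in RNA sequencing libraries of perivascular macrophages from mouse brain. These cells sit in the spaces around cerebral vessels. The members were chosen by gene symbol and are Ccl2, Ccl7, Ccl12, Ccl8, Ccl3, Ccl4, Ccl6, Ccl9 and Ccl24, which are 9 of the 17358 genes of the deposited table. Perivascular macrophages of aged C57BL mice (18 months, n = 5 libraries) were compared with those of young adult C57BL mice (3 months, n = 7 libraries), and no treatment or transgene is given for either group. Per the labels, full-length cDNA was made by the SMART-seq2 method, which starts from oligo-dT primers and amplifies small amounts of RNA, and was sequenced on a DNA nanoball platform. The libraries are called biological replicates, but the number of animals and cells behind each is not given, so a p-value here measures only how far these libraries spread. Where a library holds many cells, more cells of a type and more RNA per cell cannot be told apart.

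CC chemokines are small secreted proteins named for a pair of adjacent cysteines near the start of the mature protein. They bind receptors of the CCR family, which couple to G proteins, and draw leukocytes along a gradient. Ccl2, Ccl7, Ccl12 and Ccl8 form the monocyte chemoattractant protein group, whose genes lie side by side. Mouse macrophages also make Ccl3, Ccl4, Ccl6 and Ccl9, the macrophage inflammatory protein group, and, when alternatively activated, Ccl24. Freshly dissociated brain macrophages and microglia are known to induce several of these genes during tissue handling.

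The 9 genes are paralogs, and the coding sequence around the adjacent cysteines is shown to let their similarity be seen. Each line gives 42 bases of the coding strand, read from GENCODE M21 transcripts of GRCm38, with the codons of the adjacent cysteines in capitals.
Ccl2: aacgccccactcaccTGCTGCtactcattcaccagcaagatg
Ccl7: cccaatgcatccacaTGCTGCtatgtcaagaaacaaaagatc
Ccl12: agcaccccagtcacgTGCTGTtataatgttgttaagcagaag
Ccl8: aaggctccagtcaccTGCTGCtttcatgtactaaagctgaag
Ccl3: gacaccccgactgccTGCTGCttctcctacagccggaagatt
Ccl4: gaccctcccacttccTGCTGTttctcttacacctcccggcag
Ccl6: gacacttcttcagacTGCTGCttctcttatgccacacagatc
Ccl9: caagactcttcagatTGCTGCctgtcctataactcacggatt
Ccl24: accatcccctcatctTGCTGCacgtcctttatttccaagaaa
Over the whole coding sequence, Ccl8 was 65.4% identical to Ccl12 and 64.0% to Ccl7. Ccl3 and Ccl4 shared 68.5% and Ccl6 and Ccl9 65.9%. No stretch of 50 bases was shared between the transcripts of any members, and 1 stretch of 25 bases was shared by Ccl6 and Ccl9. The deposited estimated counts were whole numbers in all 12 libraries for 8 members, and non-whole in all 12 for Ccl9, so some reads of Ccl9 were divided between genes and its level is less certain.

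By RefSeq coordinates on GRCm38, 8 members lie on chromosome 11. The monocyte chemoattractant genes are on the forward strand, Ccl2 from 82035577 to 82037452, Ccl7 from 82045712 to 82047525, Ccl12 from 82101845 to 82103399 and Ccl8 from 82115185 to 82116799. Ccl8 starts 79.6 kb from the start of Ccl2. Within 500 kb of that interval no other gene was tested. The macrophage inflammatory protein genes lie further along, Ccl9 from 83572917 to 83578636, Ccl6 from 83587886 to 83593087 and Ccl3 from 83647843 to 83649378 on the reverse strand, and Ccl4 from 83648624 to 83664683 on the forward strand. The RefSeq span of Ccl4 overlaps Ccl3 on the opposite strand, while the GENCODE span of Ccl4 starts at 83662584 and does not. The libraries do not mark the strand. Ccl24 lies on chromosome 5 from 135569935 to 135573123, on the reverse strand.

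Promoter windows of RefSeq were at hand for 5 members (Ccl12, Ccl8, Ccl9, Ccl6 and Ccl3). Those of the neighbours Ccl12 and Ccl8 are shown because the levels of these genes are set against each other further on. Each line holds the 250 bases before the annotated start on the forward strand, chr11:82101595-82101844 for Ccl12 and chr11:82114935-82115184 for Ccl8, with TATAAA in capitals.
Ccl12: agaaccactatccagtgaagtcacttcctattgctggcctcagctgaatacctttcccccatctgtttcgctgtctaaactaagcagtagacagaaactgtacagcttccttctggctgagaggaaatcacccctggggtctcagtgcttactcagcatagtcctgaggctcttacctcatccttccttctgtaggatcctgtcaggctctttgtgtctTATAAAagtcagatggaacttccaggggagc
Ccl8: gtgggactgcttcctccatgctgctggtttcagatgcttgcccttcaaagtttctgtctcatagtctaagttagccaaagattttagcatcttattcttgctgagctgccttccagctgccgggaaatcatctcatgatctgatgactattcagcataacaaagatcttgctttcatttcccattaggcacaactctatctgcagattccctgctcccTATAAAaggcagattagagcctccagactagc
These windows were 58.0% identical, the highest of the 10 pairs of windows (the others 45.6% to 53.2%). TATAAA, searched on the coding strand, was in 3 of the 5 windows (Ccl12, Ccl8 and Ccl9), against 7.59% of 32851 mouse windows. On both strands, TGANTCA (an AP-1 motif) and the NF-kB consensus were each in 1 of the 5, in both cases Ccl9, against 6.75% and 3.90% of all windows. TTGCNNAA (C/EBP), a pair of GAAA with NN between them (IRF), TTCNNNGAA (STAT) and TTC and GAA with NNNN between them (STAT6) were in none of the 5, against 9.56%, 2.98%, 7.02% and 5.85%. The STAT and STAT6 motifs differ only in the length of their gap.

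Library totals ranged from 23214836 to 30628787 estimated counts, and between 8013 and 10266 genes had at least 5 counts. Aged libraries 1, 3 and 4 stood apart on the first principal component (15.5% of the variance), with scores of 76.1, 95.1 and 105, while the other libraries lay between -47.6 and -10.8. Summed markers of perivascular macrophages (Mrc1, Cd163, Lyve1 and 10 others) ranged from 12233 to 18653 CPM (counts scaled to a common library size) in aged and from 12904 to 22249 in young libraries. Summed microglial markers ranged from 4072 to 6087 CPM in aged and from 4057 to 7339 in young libraries, so microglial transcripts were present in both groups. Endothelial markers were at most 4.39 CPM in aged and 27.7 CPM in young libraries and mast cell markers at most 0.431 and 0.132 CPM. Summed choroid plexus markers were at 257 to 1314 CPM in aged against 63.2 to 177 CPM in young libraries, with no overlap. Of the 4 tested choroid plexus genes, 3 were higher at an unadjusted p under 0.05, against 3.85% of all genes. Of these 4, 1 was called by edgeR's quasi-likelihood test (Ttr), 2 by DESeq2 (Ttr and Enpp2), 3 by legacy=FALSE (Ttr, Enpp2 and Kcnj13) and 0 by voom. Summed oligodendrocyte markers ranged from 27.2 to 79.2 CPM in aged and from 29.0 to 84.99 CPM in young libraries. Among them Mobp, a myelin gene, was at most 0.0958 CPM in any aged library, against 2.71 to 40.2 CPM in the young ones (adjusted p = 0.177 in the quasi-likelihood fit of edgeR and 1.23e-09 with DESeq2). The marker genes are named here after their values were seen.

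All 9 members were tested with edgeR's quasi-likelihood test over 9550 genes, with Benjamini-Hochberg adjustment and a threshold of 0.05. None of the 9 passed, against 0.0105% of all genes that were called higher and 0% called lower. At an unadjusted p under 0.05, 3 members were higher in aged libraries (Ccl2, Ccl7 and Ccl8) and 0 lower, against 3.85% and 2.12% of all genes. Ccl8 was called by DESeq2, by limma with voom weights and by edgeR with legacy=FALSE, and no other member was called by any of them. DESeq2 called 0.674% of all genes higher and 0.6% lower, legacy=FALSE 0.377% and 0.0209%, and voom 0.0209% and 0%. Log2 fold changes (aged over young) were positive for 7 members, against 49.5% of all genes, with a median of 0.30 over the members and -0.01 over all genes. The aged and young libraries did not overlap for 1 member, Ccl8, against 0.325% of all genes that lay wholly higher in aged libraries and 0.272% wholly lower.

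**Figure D1:**
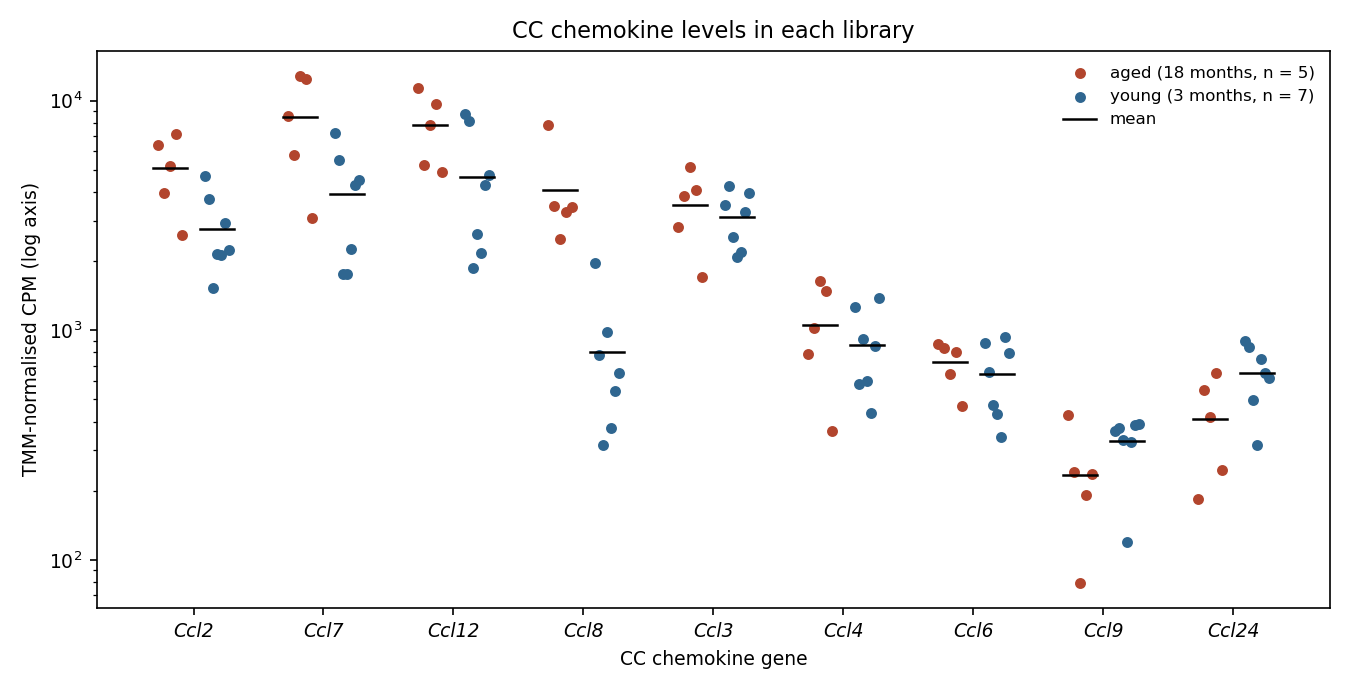
Normalised CPM (log axis) of the 9 CC chemokines in every library, aged (red) left of young (blue), with a bar at the group mean. Ccl8 is the member whose 5 aged libraries, from 2501 to 7803, all lie above the 7 young ones, from 317 to 1962.

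Ccl8 (monocyte chemoattractant protein 2, in mouse an agonist of Ccr8 that draws type 2 helper T cells) had 7803, 3472, 2501, 3266 and 3429 normalised CPM in the aged libraries, against a lowest, median and highest of 317, 653 and 1962 in the young ones. Every aged library lay above every young one, and aged library 1 and young library 1 were each the highest of their group. The means were 4094 ± 2110 in aged and 801 ± 560 in young libraries (SD, n = 5 and n = 7), a ratio of 5.11. The log2 fold change came to 2.35 ± 0.40 (SE). By edgeR's quasi-likelihood test its unadjusted p was 1.94e-05 and its adjusted p 0.0618. Behind these levels lay 49966 to 193989 counts per aged library and 9415 to 53024 per young library. Reads of amplified cDNA do not show how many molecules they came from. The call depended on the tool and on single libraries. The adjusted p was 0.00394 with DESeq2, 0.00248 with voom and 4.34e-05 with edgeR's legacy=FALSE. With the quasi-likelihood test it was 0.0149 without aged library 2 and 0.00788 without young library 1. Leaving out any other single library gave 0.0715 to 0.221 by the same test, which missed the threshold. Leaving out aged libraries 1, 3 and 4 left 2 aged against 7 young libraries and gave a log2 fold change of 2.11. By edgeR's quasi-likelihood test its unadjusted p was then 0.000482 and its adjusted p 1.

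Ccl2 (monocyte chemoattractant protein 1, the main Ccr2 ligand that draws monocytes) had 6404, 3955, 5176, 7186 and 2593 normalised CPM in the aged libraries, against 1527, 2244 and 4687 (lowest, median, highest) in the young ones. Aged libraries 1, 3 and 4 lay above all young libraries, and the other 2 within their range. The means were 5063 ± 1847 in aged and 2770 ± 1100 in young libraries (SD, n = 5 and n = 7). The log2 fold change of 0.87 ± 0.29 (SE) had an adjusted p of 0.428 by edgeR's quasi-likelihood test.

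Ccl7 (monocyte chemoattractant protein 3, a ligand of Ccr2 and of other receptors) had 8562, 5766, 12783, 12403 and 3081 normalised CPM in the aged libraries, against 1759, 4301 and 7240 (lowest, median, highest) in the young ones. The same 3 aged libraries lay above the young range. Means were 8519 ± 4196 in aged and 3908 ± 2088 in young libraries (SD, n = 5 and n = 7). A log2 fold change of 1.12 ± 0.39 (SE) resulted. By edgeR's quasi-likelihood test its adjusted p was 0.463.

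Ccl12 (monocyte chemoattractant protein 5, a mouse Ccr2 ligand) had 11353, 5258, 7828, 9655 and 4863 normalised CPM in the aged libraries, against 1874, 4281 and 8743 (lowest, median, highest) in the young ones. Aged libraries 1 and 4 lay above all young ones, and all 5 above the young median. Its log2 fold change, 0.74 ± 0.37 (SE), had an adjusted p of 0.866 by edgeR's quasi-likelihood test.

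The differences of Ccl2, Ccl7 and Ccl12 moved with the aged libraries that stood apart. When aged libraries 1, 3 and 4 were left out, log2 fold changes were 0.24 for Ccl2, 0.19 for Ccl7, 0.12 for Ccl12 and 2.11 for Ccl8. What sets these 3 libraries apart was not tested, and the labels give no batch, sort marker or sex. In the summed choroid plexus markers the aged libraries had 608, 1132, 527, 1314 and 257 CPM. The part of these transcripts in the Ccl8 difference was not tested.

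**Figure D2:**
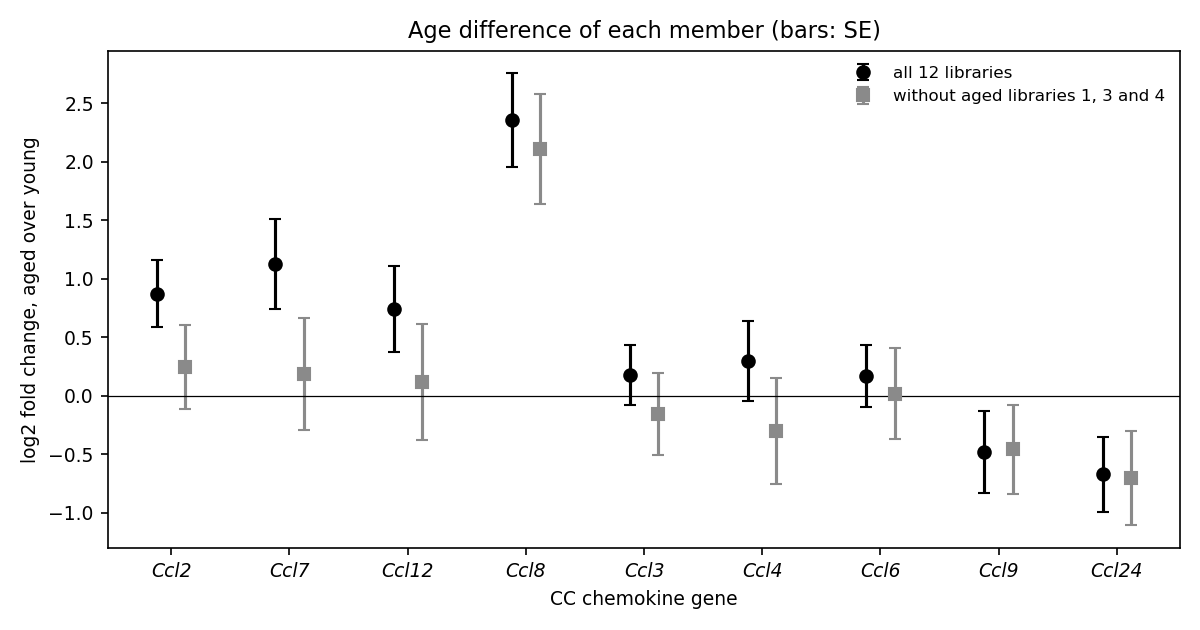
Log2 fold change (aged over young, edgeR) with its standard error for each member, with all 12 libraries and without aged libraries 1, 3 and 4. Ccl8 stands at 2.35 and 2.11, while Ccl2, Ccl7 and Ccl12 stand at 0.87, 1.12 and 0.74 with all libraries and at 0.24, 0.19 and 0.12 without the 3.

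The macrophage inflammatory protein group showed small differences. Ccl3 (macrophage inflammatory protein 1-alpha, a ligand of Ccr1) had 2810, 3849, 5138, 4076 and 1709 normalised CPM in the aged libraries, against 2080, 3257 and 4245 (lowest, median, highest) in the young ones. The aged libraries held both the highest and the lowest of the 12 values. Ccl4 (macrophage inflammatory protein 1-beta, which draws monocytes and T cells) had 790, 1022, 1636, 1474 and 365 normalised CPM in the aged libraries, against 436, 851 and 1382 (lowest, median, highest) in the young ones. Again the groups overlapped, with aged library 3 highest and aged library 5 lowest. Log2 fold changes were 0.18 ± 0.26 for Ccl3 and 0.30 ± 0.34 for Ccl4 (SE), each with an adjusted p of 0.999 by edgeR's quasi-likelihood test. The sign was not stable, since the log2 fold change of Ccl3 was -0.16 and that of Ccl4 -0.30 without aged libraries 1, 3 and 4.

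Ccl6 and Ccl9, rodent Ccr1 ligands, were lower in level. Ccl6 had 872, 836, 644, 801 and 465.5 normalised CPM in the aged libraries, against 343, 660 and 930.0 (lowest, median, highest) in the young ones, and all aged values lay inside the young range. Ccl9 had 425, 242, 79.6, 192 and 237 normalised CPM in the aged libraries, against 120, 363 and 390.0 in the young ones. For Ccl9, aged library 1 was the highest and aged library 3 the lowest of the 12, and young library 4 stood far below the other young libraries. The log2 fold changes were 0.17 ± 0.26 for Ccl6 and -0.48 ± 0.35 for Ccl9 (SE), both with an adjusted p of 0.999 by edgeR's quasi-likelihood test.

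Ccl24 (eotaxin-2, a Ccr3 ligand that draws eosinophils) had 183, 550, 419, 651 and 247 normalised CPM in the aged libraries, against 315, 650 and 893 (lowest, median, highest) in the young ones. Aged libraries 1 and 5 lay below all young ones, and 1 of the 5 lay above the young median. Means were 410 ± 197 in aged and 652 ± 201 in young libraries (SD, n = 5 and n = 7). With a log2 fold change of -0.67 ± 0.32 (SE), Ccl24 had the lowest fold change of the 9, and its adjusted p was 0.842 by edgeR's quasi-likelihood test. A p that misses the threshold does not show that the groups are alike. Over all 9550 tested genes the spread between libraries was wide (common biological coefficient of variation 1.33 in edgeR). For Ccl24 the SD was 48.15% of the mean in aged and 30.88% in young libraries.

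Levels of different genes were compared on the length-corrected scale, FPKM (fragments per kilobase of transcript and per library total). By mean FPKM over the 12 libraries Ccl12 ranked 8, Ccl7 16, Ccl2 22, Ccl8 23, Ccl3 24 and Ccl4 60 among all genes, so 6 chemokines were among the most abundant transcripts in these cells. Ccl24, Ccl6 and Ccl9 ranked 226, 242 and 980. Ccl12 averaged 15036 ± 4499 FPKM in aged and 9855 ± 4952 FPKM in young libraries, and Ccl9 averaged 76.5 ± 40.9 and 113 ± 29.0 FPKM (SD, n = 5 and n = 7). By mean log2(FPKM + 1) over the same 12 libraries the order differed in 1 place, with Ccl3 between Ccl2 and Ccl8. Neighbours in that order were compared within libraries on this scale. A two-sided exact sign-flip permutation test was used, adjusted over the 8 neighbour pairs. The order, and so the choice of pairs, came from the values that were tested. Ccl12 lay above Ccl7 in 11 of 12 libraries (mean difference 0.76, adjusted exact p = 0.00260) and Ccl7 above Ccl2 in 11 of 12 (0.52, adjusted exact p = 0.00488). Ccl4 lay above Ccl24 in all 12 libraries and Ccl6 above Ccl9 in all 12 (1.57 and 2.39, adjusted exact p = 0.00195 for both).

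The other neighbours were ordered differently in the 2 age groups, so their test over all 12 libraries averages opposite or unequal differences. Ccl2 lay above Ccl3 in 4 of 5 aged libraries and below it in 5 of 7 young ones (mean difference 0.50 in aged and -0.24 in young libraries, and over all 12 an adjusted exact p of 0.794). Ccl3 lay below Ccl8 in 4 of 5 aged libraries and above it in 7 of 7 young ones (-0.89 in aged and 1.45 in young libraries, adjusted exact p = 0.398 over all 12). Ccl8 lay above Ccl4 in 5 of 5 aged libraries and in 4 of 7 young ones (2.45 in aged and 0.21 in young libraries). Over all 12 its adjusted exact p was 0.0320, a call that was lost on leaving out any of the 5 aged libraries or young library 1, 2 or 4 (adjusted exact p from 0.0516 to 0.0641). Ccl24 lay below Ccl6 in 4 of 5 aged libraries and above it in 5 of 7 young ones (-0.57 in aged and 0.41 in young libraries, adjusted exact p = 0.990 over all 12). Whether these differences depend on age was tested, as ratios of counts, for the pairs with Ccl8, and was not tested for the others.

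Ccl8 took a different place in this order in the 2 age groups. By FPKM it was the member ranked 2 in aged libraries 1, 2 and 5, ranked 5 in aged library 3 and ranked 4 in aged library 4, against rank 5 or 6 of 9 in every young library. It had 16022, 7796, 4525, 5963 and 8749 FPKM in the aged libraries, against 749, 1476 and 3941 FPKM (lowest, median, highest) in the young ones. Of the summed FPKM of the 9 members, Ccl8 made up 18.5% ± 7.79 in aged and 6.51% ± 3.17 in young libraries (SD, n = 5 and n = 7), with overlap between aged libraries 3 and 4 and young library 4. Ccl3 made up 9.64% ± 3.11 in aged and 16.8% ± 4.004 in young libraries, and Ccl24 0.796% ± 0.369 and 2.44% ± 0.975. Ccl12 and Ccl2 had similar mean shares, with 31.8% ± 3.55 in aged and 33.8% ± 5.89 in young libraries for Ccl12, and 13.1% ± 1.36 and 14.03% ± 2.48 for Ccl2. The 4 genes of the cluster together made up 79.8% to 91.0% in aged and 60.7% to 82.1% in young libraries. In all, the 9 members took 1.91% to 3.63% of the counts of an aged library and 1.06% to 2.61% of those of a young one.

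**Figure D3:**
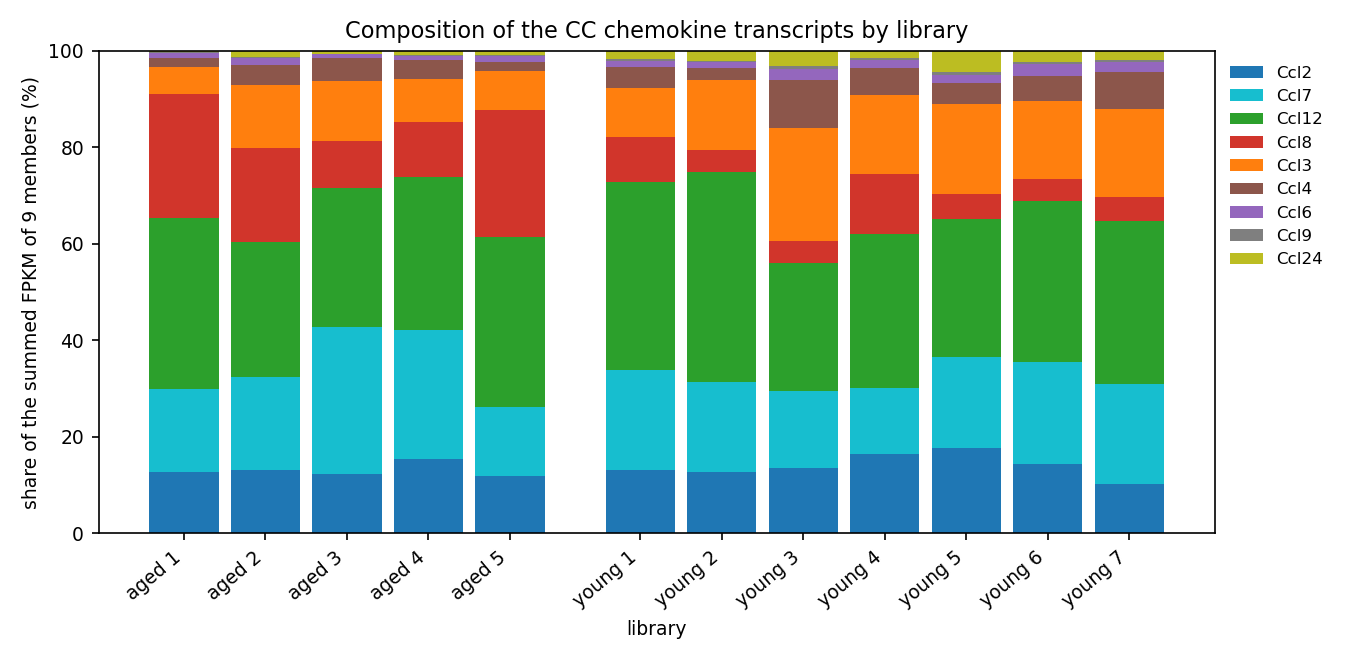
Share of the summed FPKM of the 9 members (percent) taken by each member in every library, aged libraries left of young ones. The Ccl8 block (red) covers 9.66% to 26.3% in aged and 4.403% to 12.6% in young libraries.

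Because library scaling cancels in a ratio of genes within a library, Ccl8 was also set against each other member as a ratio of counts. The ratio of Ccl8 to Ccl2 was 1.22, 0.878, 0.483, 0.455 and 1.32 in the aged libraries, against 0.177, 0.208 and 0.454 (lowest, median, highest) in the young ones. Every aged library lay above every young one, although aged library 4 did so by a small margin (0.4545 against 0.4539). The mean log2 ratio was -0.34 ± 0.73 in aged and -1.95 ± 0.56 in young libraries (SD, n = 5 and n = 7), a difference of 1.61 (exact two-sided permutation p = 0.00253, the smallest that 5 against 7 libraries can give, adjusted p = 0.00505 over 8 ratios). The ratio of Ccl8 to its neighbour Ccl12 was 0.687, 0.660, 0.319, 0.338 and 0.705 in the aged libraries, against 0.0957, 0.169 and 0.372 (lowest, median, highest) in the young ones. Here young library 4 lay above aged libraries 3 and 4, and the difference in mean log2 ratio was 1.59 (exact permutation p = 0.00758, adjusted p = 0.00866). The ratio to Ccl7 was 0.911, 0.602, 0.196, 0.263 and 1.11 in the aged libraries, against 0.127, 0.166 and 0.555 (lowest, median, highest) in the young ones. This ratio overlapped most, with a difference of 1.34 (exact permutation p = 0.0303, adjusted p = 0.0303), and its call was lost without aged library 1, 2 or 5 (adjusted exact permutation p = 0.0727, 0.0667 and 0.0727).

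Against the remaining members the mean log2 ratio of Ccl8 differed by 2.35 for Ccl3, 2.26 for Ccl4, 2.26 for Ccl6, 3.07 for Ccl9 and 3.23 for Ccl24, aged minus young (adjusted exact permutation p from 0.00505 to 0.00866). The groups did not overlap for Ccl6, Ccl9 and Ccl24. All 8 ratios share the counts of Ccl8, whose own difference was known, so they are not 8 separate results. Without aged libraries 1, 3 and 4 the differences were 2.01 to 3.11, and the exact permutation p was 0.0556 for each, the smallest that 2 against 7 libraries can give.

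**Figure D4:**
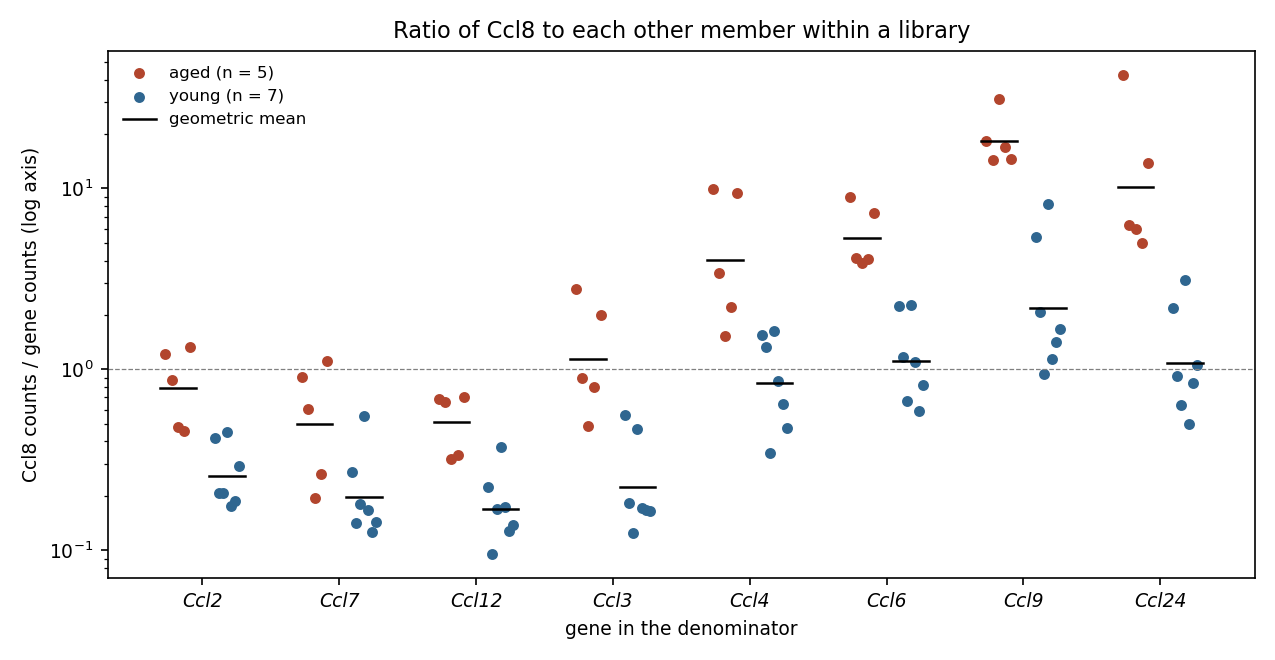
Ratio of Ccl8 counts to the counts of each other member within a library (log axis), aged (red) left of young (blue), with a bar at the geometric mean and a dashed line at equal counts. All aged points lie above all young points for Ccl2, Ccl6, Ccl9 and Ccl24, and the ratio to Ccl7 overlaps most.

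Co-variation between libraries of the same age was measured as the correlation of log2(CPM + 1) after removing each group's mean, over 12 libraries and 36 pairs, with 100000 permutations within groups. Of the 36 coefficients 33 were positive, and 5 pairs had an adjusted p under 0.05. The share of all gene pairs that reach such values was not computed, so these counts do not set the members apart. A gene outside the members followed Ccl2 more closely (r = 0.946) than any member did. Ccl2, Ccl7 and Ccl12 varied together. Pearson's r was 0.895 for Ccl2 and Ccl12 (permutation p = 7.0e-05, adjusted p = 0.00252, Spearman's rho 0.937 with permutation p = 3.0e-05), 0.894 for Ccl2 and Ccl7 (p = 0.00035, adjusted p = 0.00630, rho 0.867 with p = 0.00135) and 0.875 for Ccl7 and Ccl12 (p = 0.00064, adjusted p = 0.00768, rho 0.783 with p = 0.00479). Without the 2 libraries farthest from the median of the x measure r was 0.892, 0.818 and 0.901, and over the 9 libraries other than aged 1, 3 and 4 it was 0.894, 0.896 and 0.922 (adjusted permutation p from 0.0178 to 0.0361). On CPM without scaling factors r was lower, at 0.841, 0.812 and 0.818 (adjusted permutation p from 0.0310 to 0.0328).

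Ccl3 varied with Ccl7 (r = 0.854, adjusted permutation p = 0.0163, rho 0.881) and with Ccl4 (r = 0.798, adjusted permutation p = 0.0494, rho 0.692), and without the 2 farthest libraries r was 0.729 and 0.627. The call for Ccl3 and Ccl7 was lost without aged library 5 (r = 0.786, adjusted permutation p = 0.126) and without aged libraries 1, 3 and 4 (r = 0.840, adjusted permutation p = 0.0732), and that for Ccl3 and Ccl4 on leaving out any library except young library 2 (adjusted permutation p from 0.0506 to 0.200). Ccl8 co-varied less closely with its neighbours, with r = 0.691 for Ccl12 (adjusted permutation p = 0.0773, rho 0.692), 0.609 for Ccl2 (adjusted permutation p = 0.1005, rho 0.497) and 0.383 for Ccl7 (adjusted permutation p = 0.360, rho 0.217). With Ccl3 its r was 0.045 (adjusted permutation p = 0.907). Whether the coefficients of Ccl8 differ from those among the other 3 was not tested.

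**Figure D5:**
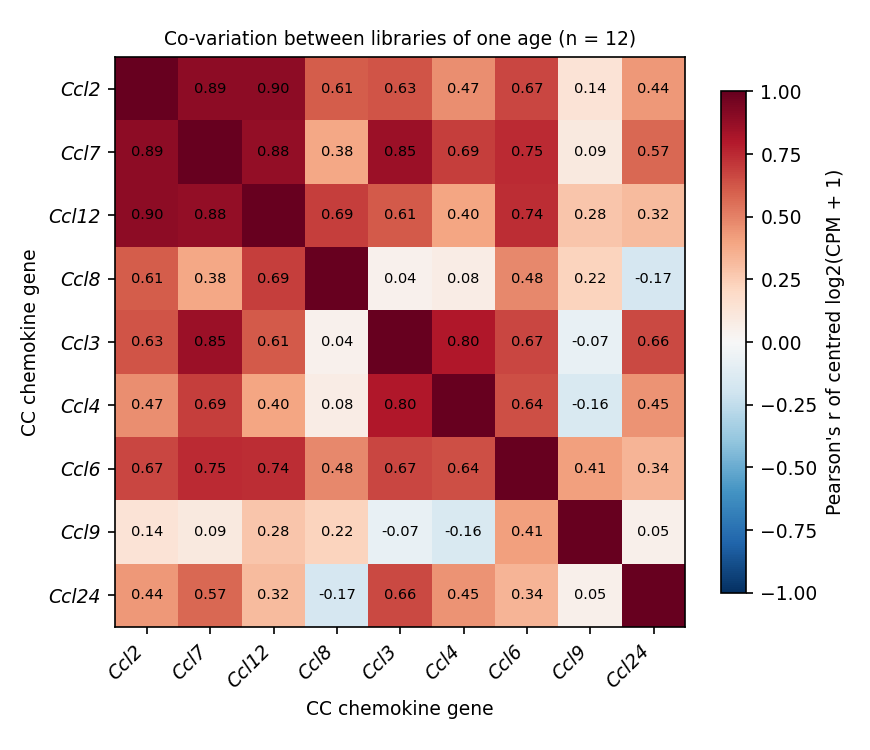
Pearson's r between members of log2(CPM + 1) centred within each age group, over 12 libraries, with the value printed in each cell. Ccl2, Ccl7 and Ccl12 form a block of 0.875 to 0.895, and the Ccl8 row reaches 0.69 at Ccl12.

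Among the other tested genes, those whose centred levels followed Ccl8 most closely over the 12 libraries were Prune2 (r = 0.883), Adam3 (0.854), Ascc2 (0.854), Slc39a1 (0.853, a zinc transporter) and Apbb2 (0.834). Those closest to Ccl2 were Mrps18c (0.946, a mitochondrial ribosomal protein), Tmem258 (0.944), Selenos (0.927, a selenoprotein of the endoplasmic reticulum), Psma3 (0.920, a proteasome subunit) and Wfdc17 (0.918). These are the highest coefficients among the tested genes outside the members. They are given as a description, since the libraries share their depth and amplification. Adam3, Ascc2 and Apbb2 were at low levels, with means of 1.43, 6.06 and 2.95 CPM in aged and 4.42, 6.55 and 1.56 CPM in young libraries. Prune2 and Slc39a1 were at 712 and 810 CPM in aged and 630 and 655 CPM in young libraries.

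Of 12 other CC chemokine genes looked up, 6 were in the table and 2 had enough counts to be tested. By edgeR's quasi-likelihood test neither passed, as with DESeq2, voom and legacy=FALSE, and at an unadjusted p under 0.05 Ccl5 was lower in aged libraries. Ccl5 (RANTES, a chemokine of T and natural killer cells among others) had 0.322, 0.472, 0.450, 0.287 and 0 normalised CPM in the aged libraries, against 9.77, 17.5, 0, 0, 20.8, 13.7 and 0.197 in the young ones. Thus 4 of 7 young libraries held nearly all of it, with 1817 counts over the young and 37 over the aged libraries. Its log2 fold change was -4.83 ± 2.17 (adjusted p = 0.785 by edgeR). Summed T and natural killer cell markers were at 3.26 to 31.1 CPM in aged and 3.21 to 84.8 CPM in young libraries, and their part in the Ccl5 level was not tested. Ccl27a was at 7.36 ± 8.07 CPM in aged and 6.47 ± 5.36 CPM in young libraries (SD, n = 5 and n = 7; adjusted p = 0.999 by edgeR).

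Of 14 receptor genes, 12 were in the table and 4 were tested. None passed edgeR's quasi-likelihood test, DESeq2, voom or legacy=FALSE, and 0 had an unadjusted p under 0.05. Ccr1, the receptor of Ccl3, Ccl6 and Ccl9, was the most abundant on the length-corrected scale, at 201 ± 15.9 FPKM in aged and 187 ± 38.0 FPKM in young libraries (SD, n = 5 and n = 7). Ccrl2, an atypical receptor that does not signal through G proteins, was at 35.2 ± 29.2 FPKM in aged and 73.2 ± 30.0 FPKM in young libraries. The log2 fold changes were 0.22 ± 0.21 for Ccr1 and -0.93 ± 0.61 for Ccrl2 (SE), each with an adjusted p of 0.999 by edgeR. Ccr2, the receptor of the monocyte chemoattractant proteins and a marker of monocytes, had 39.4 and 45.8 CPM in aged libraries 1 and 5 and 71.1 CPM in young library 5, against at most 13.3 CPM in any other. Its mean was 4.96 ± 6.93 FPKM in aged and 4.58 ± 8.44 FPKM in young libraries. Ccr8, the receptor of mouse Ccl8, had 0 counts in all 5 aged libraries and 2 counts in all over the young ones. A count of 0 allows up to 3 counts, or 0.0979 to 0.129 CPM by library, for counting error only.

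Genes that act upstream of chemokine transcription were read out of the same fit. Of 21 tested genes of NF-kB and its sensors, 0 passed with edgeR, DESeq2, voom or legacy=FALSE. At an unadjusted p under 0.05, 1 was higher and 3 lower, against 3.85% and 2.12% of all genes. The median log2 fold change was -0.24 against -0.01 over all genes. Nfkbiz, which encodes the nuclear protein IkB-zeta, was at 1049 ± 486 CPM in aged and 469 ± 202 CPM in young libraries. Its log2 fold change was 1.16 ± 0.36 (adjusted p = 0.380 by edgeR). Nfkbia, the NF-kB inhibitor IkB-alpha, was at 518 ± 129 CPM in aged and 820 ± 281 CPM in young libraries (-0.66 ± 0.25, adjusted p = 0.565 by edgeR). Tlr2, a receptor for bacterial lipoproteins, was at 39.6 ± 34.6 CPM in aged and 105 ± 43.9 CPM in young libraries (-1.41 ± 0.54, adjusted p = 0.589 by edgeR).

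Of 17 other transcription factors of chemokine genes, 0 passed with edgeR, voom or legacy=FALSE and 1, Junb, was called lower by DESeq2 (adjusted p = 0.00394). At an unadjusted p under 0.05, 1 was higher (Fos) and 1 lower (Junb) in aged libraries, against 3.85% and 2.12% of all genes. The median log2 fold change was 0.25. Junb, an AP-1 subunit, was at 197, 185, 129, 130.3 and 302 CPM in the aged libraries, against 266, 409 and 531 CPM (lowest, median, highest) in the young ones, so that aged library 5 alone reached into the young range. Its log2 fold change was -1.14 ± 0.26 (adjusted p = 0.187 by edgeR). Fos, another AP-1 subunit, was at 5260 ± 1226 CPM in aged and 3675 ± 691 CPM in young libraries (0.52 ± 0.20, adjusted p = 0.578 by edgeR). Fosl2, also an AP-1 gene, was at 81.7 ± 36.0 CPM in aged and 44.9 ± 20.1 CPM in young libraries (0.86 ± 0.46, adjusted p = 0.941 by edgeR).

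Of 9 genes that act on the decay of chemokine messenger RNA, 0 passed with edgeR, DESeq2, voom or legacy=FALSE. The median log2 fold change was 0.31. At an unadjusted p under 0.05, 2 were higher and 0 lower, against 3.85% and 2.12% of all genes. Both were members of the family of proteins that bind AU-rich elements. Zfp36l2 was at 955 ± 428 CPM in aged and 575 ± 124 CPM in young libraries (0.73 ± 0.30, adjusted p = 0.656 by edgeR), and Zfp36l1 at 1665 ± 758 and 1082 ± 227 CPM (0.62 ± 0.27, adjusted p = 0.722 by edgeR). Zfp36 (tristetraprolin), of the same family, was at 2948 ± 1070 CPM in aged and 4368 ± 1939 CPM in young libraries (-0.57 ± 0.28, adjusted p = 0.876 by edgeR).

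Of 18 genes of signalling below chemokine receptors, 0 passed with edgeR, DESeq2, voom or legacy=FALSE. At an unadjusted p under 0.05, 0 were higher and 1, Rac2, was lower, against 3.85% and 2.12% of all genes. The median log2 fold change was -0.22. Rac2, a GTPase of cell movement in leukocytes, was at 17.5, 84.9, 38.4, 11.1 and 41.1 CPM in the aged libraries, against 71.9, 98.8 and 139 CPM (lowest, median, highest) in the young ones. All aged libraries but library 2 lay below the young range, and the log2 fold change was -1.46 ± 0.47 (adjusted p = 0.399 by edgeR). Pik3cg, the leukocyte phosphoinositide 3-kinase gamma, was at 72.6 ± 32.8 CPM in aged and 119 ± 60.8 CPM in young libraries, and Grk2, a kinase that switches off activated receptors, at 9.58 ± 10.6 and 31.2 ± 21.6 CPM (adjusted p = 0.990 and 0.992 by edgeR).

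Genes known to be induced while cells are taken out of tissue, such as Fos, Jun and Egr1, were summed beside these results. The 19 genes, none of them a CC chemokine, added up to 24914, 23253, 31056, 29459 and 30811 CPM in the aged libraries, against 19106, 23273 and 32547 CPM (lowest, median, highest) in the young ones. The groups overlapped. Young library 3, the highest of the 12 at 32547 CPM, had 317 CPM of Ccl8, 1527 CPM of Ccl2 and 1761 CPM of Ccl7. Aged library 3, the next highest, had 2501, 5176 and 12783 CPM of the same genes, aged library 5 had 3429, 2593 and 3081 CPM, and aged library 4 had 3266, 7186 and 12403 CPM. The sum hides single genes. Zfp36 was at 8710 CPM in young library 3, against at most 4291 CPM in any other. Klf6 was at 994 CPM in young library 3, against 2811 and 2363 CPM in aged libraries 3 and 4. Egr1 went the other way, at 3984 CPM against 2753 and 2515 CPM. At an unadjusted p under 0.05, 5 of the 19 were higher and 2 lower in aged libraries, against 3.85% and 2.12% of all genes. Of the 19, 0 passed with edgeR's quasi-likelihood test, voom or legacy=FALSE, and DESeq2 called Klf2 higher and Junb lower. Their part in the chemokine levels was not tested.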

How the data were processed

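The authors deposited estimated counts per gene and normalised values without a named unit. Per the submitters' processing notes reads were processed on GRCm38 (mm10) with RSEM 1.2.12, DESeq2 1.4.5, HISAT2 2.0.4 and Bowtie2 2.2.5, in roles not given in the sources used here. The deposited normalised values were read as FPKM because the length they imply lay just under the transcript length for every member (for Ccl8 433 to 477 bases of 511). Estimated counts were rounded. Chemistry without molecular identifiers counts amplified copies as separate reads. All 12 libraries were compared, aged over young, with edgeR 4.0.16 in R 4.3.3 (quasi-likelihood test, default estimation, TMM factors, filterByExpr, robust), adjusted over 9550 genes. Normalised CPM use TMM factors, and SE was taken from the F statistic. The fit was tested on simulated data. Single values used exact permutation tests. DESeq2 1.42.0, limma 3.58.1, other scalings and filters, and left-out libraries were alternatives. RefSeq matched 17244 of 17358 identifiers. The members and gene lists were chosen with earlier results of these data known. Genes outside the members were named as the 5 most correlated with Ccl8 and with Ccl2, and as the 3 with the smallest p in each pathway list, of which 1 is not reported here.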

Additional observations from a re-analysis of the deposited data

Results flagged for a closer look

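Dixon's criterion was used to look for a library far from its neighbours. It was applied to the normalised CPM of the 9 members and to the log2 ratios of Ccl8 to each other member. Of the 34 groups of 5 or 7 libraries checked, 3 were found, none of them in a ratio, where chance gives about 1 in 20. Ccl8 had 7803 normalised CPM in aged library 1, against 3472 in the next aged library. Among young libraries, Ccl8 had 1962 normalised CPM in young library 1, against 977 in the next. Ccl9 had 120 normalised CPM in young library 4, against 327 in the next lowest young library.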

How the results depend on the processing

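The count of genes called was 1 higher and 0 lower, and 64 and 57 with DESeq2, 36 and 2 with edgeR legacy=FALSE, 13 and 0 with no filter, 3 and 3 with limma on log2(FPKM + 1), 0 and 0 on log2(FPKM + 0.1), 2 and 0 with voom, and 0 and 0 without aged libraries 1, 3 and 4. Leaving out single libraries gave 0 to 61 higher and 0 to 14 lower, with 61 and 14 without aged library 2. The members called were 0, and 1 (Ccl8) with DESeq2, voom, legacy=FALSE, log2(FPKM + 1) and the replicate block, and 0 to 1 with single libraries left out. Replicate numbers did not pair the libraries (correlations of same-numbered deviations -0.041 to 0.094, none matching its own number best). With the replicate block, Ccl8 had a log2 fold change of 2.41 (adjusted p = 0.0493 by edgeR), and 1 gene was called higher and 0 lower. Over single libraries left out, the log2 fold change of Ccl8 was 1.97 to 2.72 (adjusted p 0.00788 to 0.221 by edgeR). In all other alternatives its adjusted p by edgeR or limma was 0.0556 to 0.0921, except 1 without aged libraries 1, 3 and 4. The median log2 fold change of all genes was -0.01, and -0.17 and -0.25 with log2(FPKM + 1) and log2(FPKM + 0.1), -0.16 with the block and -0.13 with voom. Ccl3 turned to -0.03 with both FPKM settings, to -0.16 without aged libraries 1, 3 and 4, and to -0.02 at the lowest (0.33 at the highest) with single libraries left out, and Ccl4 to -0.30 without those 3. Without those 3, the log2 ratio differences of Ccl8 were 2.05 (Ccl2), 2.59 (Ccl3), 2.74 (Ccl4), 2.31 (Ccl6), 2.05 (Ccl7), 2.72 (Ccl9), 2.01 (Ccl12) and 3.11 (Ccl24), with 2 aged libraries left. With single libraries left out the ratio difference to Ccl7 was 1.06 to 1.68 (9 of 12 past the threshold). Level differences were -0.0322 to 0.1496 for Ccl2 over Ccl3, 0.905 to 1.34 for Ccl8 over Ccl4 and -0.133 to 0.171 for Ccl24 over Ccl6. Correlations, in alternatives chosen after the data were seen, were 0.698 for Ccl3 and Ccl4 and 0.740 for Ccl3 and Ccl7 on CPM without scaling factors, 0.705 and 0.840 without aged libraries 1, 3 and 4 (both calls lost in both settings, adjusted permutation p = 0.179, 0.0930, 0.1797 and 0.0732 in the order given), and 0.639 to 0.947 and 0.786 to 0.903 with single libraries left out. The cause of these changes was not tested, beyond the fewer libraries in some. Every member had at least 1591 counts in every library, but reads without molecular identifiers do not show how many molecules lay behind them.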
